A study of Mus musculus with 12 samples.

Results

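The genes described here are 121 mouse genes of the secretory and endosomal trafficking machinery, measured in whole brain by spotted cDNA arrays. They were chosen by symbol alone, with no measured value: every gene whose symbol begins as those of the Vps, Snx, COPI coat (Cop), Sec, Tmed, Ap1 to Ap4, Trappc, Exoc, Lman, Golg or Sar1 families and whose clones had values in all 12 samples. They are 121 of 6427 genes measured under 1 name, and they rest on 224 clones, with 58 genes on 1 clone and 63 on at least 2. A further 20 symbols of these families are on the array without a value and are not analysed here. One member, Vps72, is known as a chromatin protein that handles a histone variant and shares only the name.

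The study compared brains of C57Bl/6j mice at 10 days after birth (P10) in 3 genotypes of Gja9. This is an older symbol of Gjd2, the gene of connexin36, from which most electrical synapses between neurons are built. The groups are wildtype, Gja9 -/- (called Gja9_null here) and Gja9 +/- (Gja9_het), with 4 samples each. Total RNA was labelled directly with Cy5 or Cy3, and each of 6 arrays carried 2 samples of the same genotype in the 2 colours. The deletion is in the germline as far as the labels say, with no treatment, Cre line or reporter named, and no source used here gives its breeding.

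A genotype thus rests on 2 arrays, which limits the precision of every comparison. The design text calls the samples biological replicates but does not say that each is a separate animal. The p-values thus measure the spread between these samples. In the fit the 2 samples of an array correlated at 0.927, so this is mostly the spread between the 2 arrays of a genotype. No probe under the name Gja9 or Gjd2 carried a value, so the deleted gene could not be read as a check of the labels. Values are log2 signals relative to the mean signal of the same sample, so that a difference of 1 is a ratio of 2. Brain markers were present, with 6 of 14 listed neuronal genes measured, the neuronal tubulin Tubb3 at a median of 2.84, the dendritic Map2 at 2.45 and the myelin gene Mbp at 3.48. In tissue RNA, fewer cells of a type and less RNA per cell cannot be told apart.

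Proteins for secretion enter the endoplasmic reticulum (ER) through the Sec61 channel, leave it in COPII-coated vesicles, and return from the Golgi in COPI-coated ones, with golgins and tethering complexes catching the vesicles. Past the Golgi, adaptor complexes, retromer and sorting nexins, the ESCRT machinery and the HOPS, CORVET and GARP tethers sort cargo among the plasma membrane, endosomes and lysosomes. Neurons depend on this traffic for delivering channels and receptors, gap junction proteins among them, and for recycling synaptic vesicle membrane.

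Parts of this machinery are known to be regulated together, the ER and vesicle coat genes through the unfolded protein response and lysosomal genes through TFEB. The promoters were therefore searched, on both strands, for the letters that the factors of these programmes are known to read. RefSeq (GRCm38.p6) gave a window from 250 bases before to 50 after the start for 94 of the 121 genes. TGACGTGG, the core of the unfolded protein response element, occurred in 4 of the 94 genes (4.26%) and in 0.714% of all 27025 genes with a window. TCACGTGA, the core of the TFEB-read CLEAR element, also occurred in 4 of the 94 (4.26%), against 1.12% of all genes. The genes with the first are Copb1, Copb2, Sec23a and Sec24d, which all encode coat subunits, and those with the second are Sec62, Vps16, Vps26a and Vps33a. Of 3 other motifs searched, the full ER stress response element was in 0 of the 94 against 0.137% of all genes, the palindromic NRF1 site in 1 (1.06%) against 1.07%, and CCAAT, with which the ER stress element begins, in 31 (33.0%) against 41.1%. The 27025 genes are all those with a window, measured here or not, while every member had values in brain. The shares thus come from unlike sets. These counts describe letters and not binding, and they were not tested.

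The promoters shown are those of a COPI and a COPII coat gene for the first motif and of the HOPS subunits Vps16 and Vps33a, whose proteins bind each other, for the second, each written 5′ to 3′ on the gene's strand with the matched letters in capitals. Copb2 lies at chr9:98563481-98563780 on the plus strand, and its match is on the opposite strand, so it reads CCACGTCA. Sec24d lies at chr3:123267246-123267545 (plus), Vps16 at chr2:130424070-130424369 (plus) and Vps33a at chr5:123572966-123573265 (minus), where the motif occurs 2 times.
Copb2: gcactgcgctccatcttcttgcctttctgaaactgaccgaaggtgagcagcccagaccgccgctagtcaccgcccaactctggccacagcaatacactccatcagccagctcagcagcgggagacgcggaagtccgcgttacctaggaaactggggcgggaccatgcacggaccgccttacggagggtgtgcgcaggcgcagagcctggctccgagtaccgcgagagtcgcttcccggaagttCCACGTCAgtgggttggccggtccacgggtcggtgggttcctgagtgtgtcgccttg
Sec24d: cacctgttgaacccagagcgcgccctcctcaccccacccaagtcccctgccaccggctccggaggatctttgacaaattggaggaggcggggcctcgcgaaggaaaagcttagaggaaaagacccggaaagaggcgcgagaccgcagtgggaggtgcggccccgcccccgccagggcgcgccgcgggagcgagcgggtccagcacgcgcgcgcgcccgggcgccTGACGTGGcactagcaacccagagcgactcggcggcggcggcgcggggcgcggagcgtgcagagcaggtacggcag
Vps16: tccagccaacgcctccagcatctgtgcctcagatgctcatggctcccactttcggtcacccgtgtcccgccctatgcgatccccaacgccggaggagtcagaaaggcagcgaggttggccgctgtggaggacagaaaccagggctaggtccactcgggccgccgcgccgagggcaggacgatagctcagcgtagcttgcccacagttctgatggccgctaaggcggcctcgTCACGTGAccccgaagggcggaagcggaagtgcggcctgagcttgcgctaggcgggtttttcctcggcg
Vps33a: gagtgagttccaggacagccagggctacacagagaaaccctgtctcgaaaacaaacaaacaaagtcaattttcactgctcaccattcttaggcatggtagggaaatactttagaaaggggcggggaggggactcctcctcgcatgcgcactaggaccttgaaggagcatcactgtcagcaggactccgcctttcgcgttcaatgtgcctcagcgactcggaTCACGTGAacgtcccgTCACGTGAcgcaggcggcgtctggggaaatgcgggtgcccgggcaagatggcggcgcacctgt

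None of the 8 genes with either motif passed the test below in any comparison. In Gja9_null against wildtype the coat genes stood at log2 differences of -0.02 ± 0.34 (SE) for Copb1, 0.01 ± 0.33 for Copb2, -0.26 ± 0.26 for Sec23a and 0.01 ± 0.28 for Sec24d. The genes with the CLEAR core ran from -0.78 ± 0.34 for Vps16 through -0.32 ± 0.30 for Sec62 and -0.02 ± 0.29 for Vps26a to 0.25 ± 0.41 for Vps33a. Both sets had values on either side of 0.

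No trafficking gene passed the threshold between Gja9_null and wildtype brain, and the share of members with small unadjusted p was that of the whole array. Every difference was tested with limma over all 9514 genes and unnamed probes, with the array as a random block and Benjamini-Hochberg adjustment, and 0 members passed an adjusted p of 0.05 in Gja9_null against wildtype, where 0.326% of all features did. At an unadjusted p under 0.05, 6 members were at higher values in Gja9_null (background 2.41%) and 8 at lower ones (background 9.22%), 11.6% of the members in all and 11.6% of all features. Averaging the 2 colours of each array before the fit also gave 0 members. In 10 members all 4 Gja9_null samples lay above all 4 wildtype samples (background 7.52%), and in 16 all lay below (background 15.6%).

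The members' differences were of the size seen over the array or smaller. Their median difference was -0.072 and that of all features -0.100, and the median size without sign was 0.247 against 0.310. The 121 members average 224 clones, and the 9514 features average 13443 probes, many of them single and unnamed. The sizes thus rest on unlike averaging, and its part in them was not tested. Lower values were more frequent than higher ones, 71 to 50, as they were over all features, 5606 to 3908. This split depends on the scaling: centring each sample on its median puts the members' median at 0.005 and quantile normalization at 0.024. Quantile normalization moves the median of all features from -0.100 to 0.024, so directions of small differences below are relative to that shift. The SD between the arrays of a genotype of the members' median was 0.052.

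**Figure D1:**
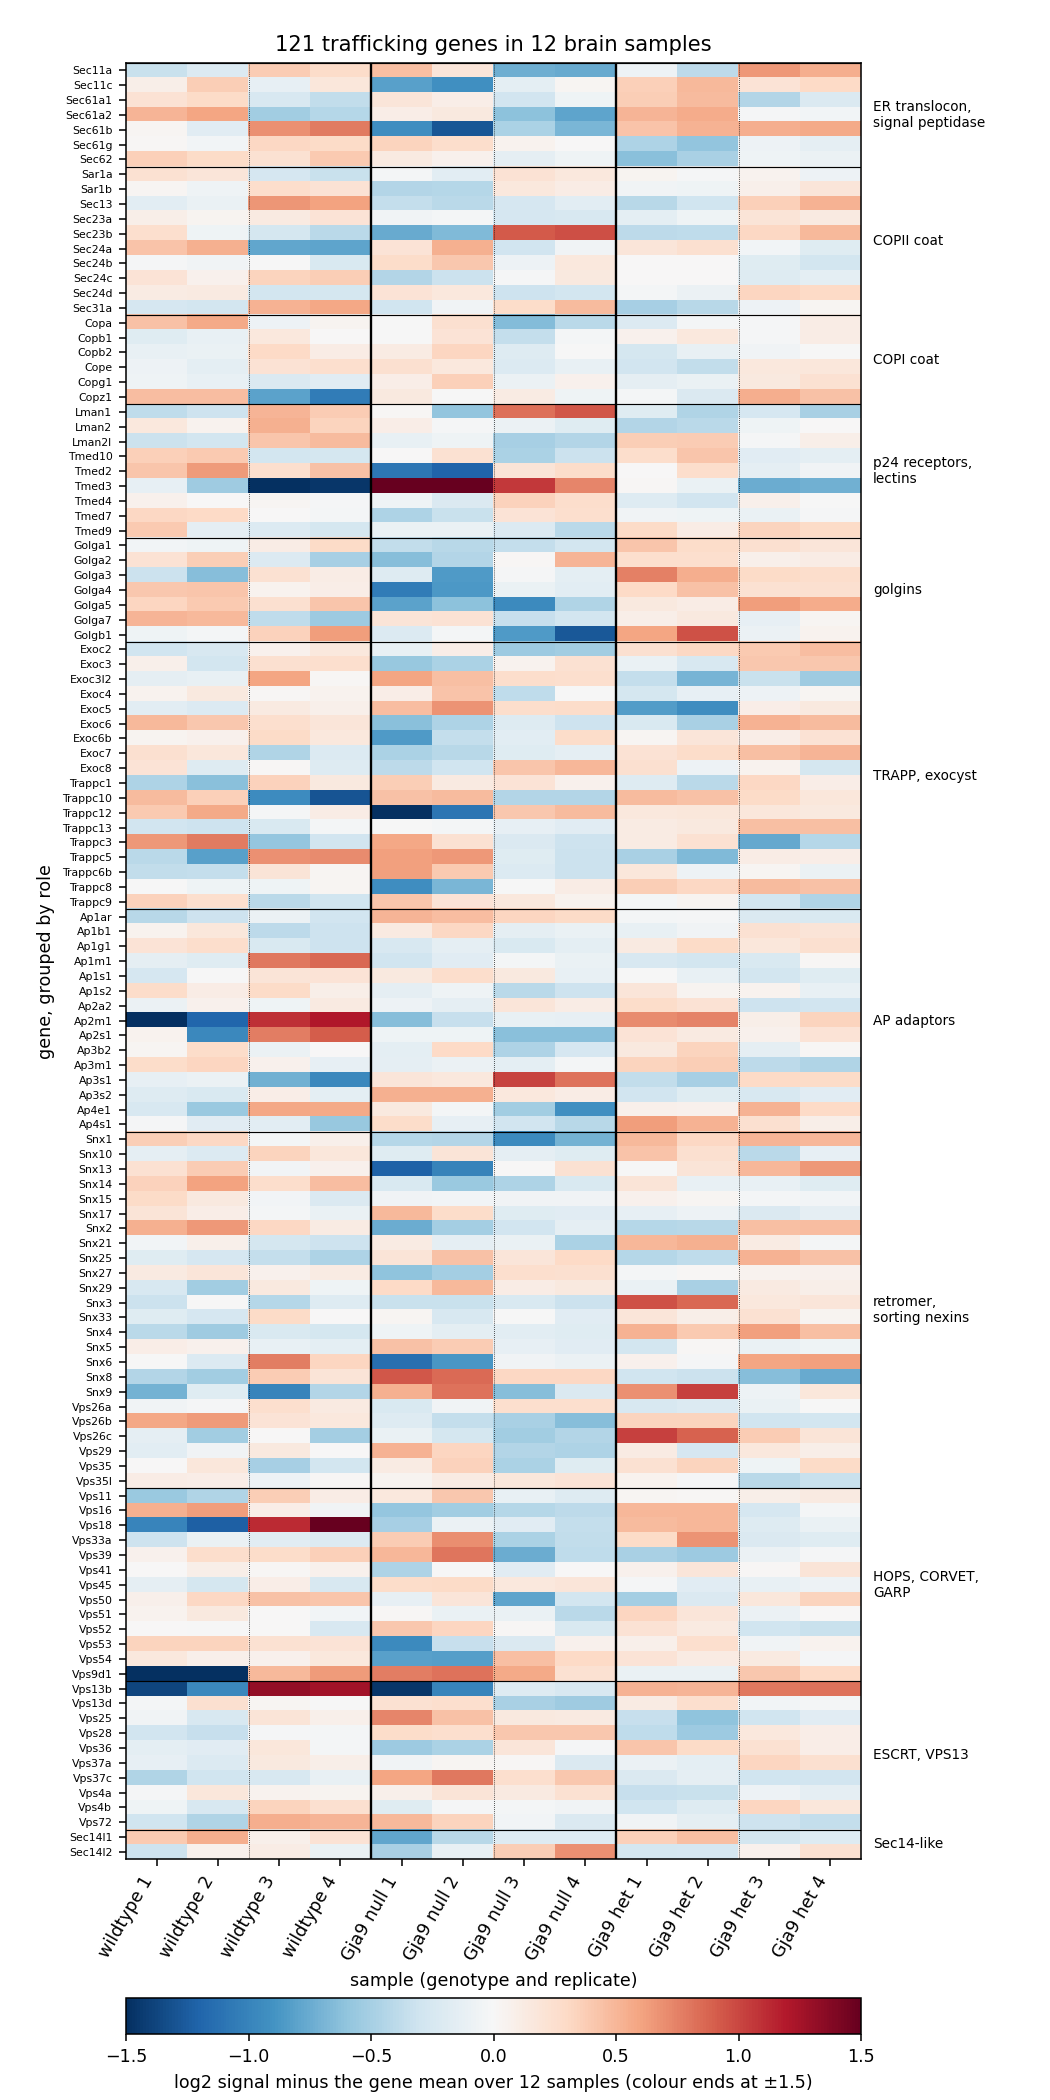
The heat map gives each of the 121 genes (vertical, grouped by role) in each of the 12 samples (horizontal) as the log2 signal minus the gene's mean, red for above and blue for below, with solid lines between genotypes and dotted lines between arrays. The 2 samples of an array look alike in most genes but not in all, as in Ap2s1 on the first wildtype array. Tmed3 is the gene with the darkest block in Gja9_null.

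Probes next to a clone in the probe numbering moved with many of these values. Whether the numbering follows position on the slide was not checked. The locally centred value is given for the members that the results turn on or where it removes or turns a larger difference. For every probe, the median deviation of the 50 measured probes on either side in the probe numbering was subtracted, and the difference between the deposited and the locally centred value is called the surrounding shift. Across the 121 members the surrounding shift in Gja9_null against wildtype ran from -1.19 to 0.39, and it correlated with the members' own differences at r = 0.55, a description across genes that share the same arrays. Of the 8 members at lower values with an unadjusted p under 0.05, 7 had a surrounding shift below -0.3, as did 24 of all 121 (19.8%) and 0 of the 6 at higher values. Whether the shift made these differences was not tested. Local centring enlarged other differences in Gja9_null against wildtype, as in Lman1 from 0.25 to 0.84 and in Exoc8 from 0.09 to 0.70. Not every such member is listed.

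**Figure D2:**
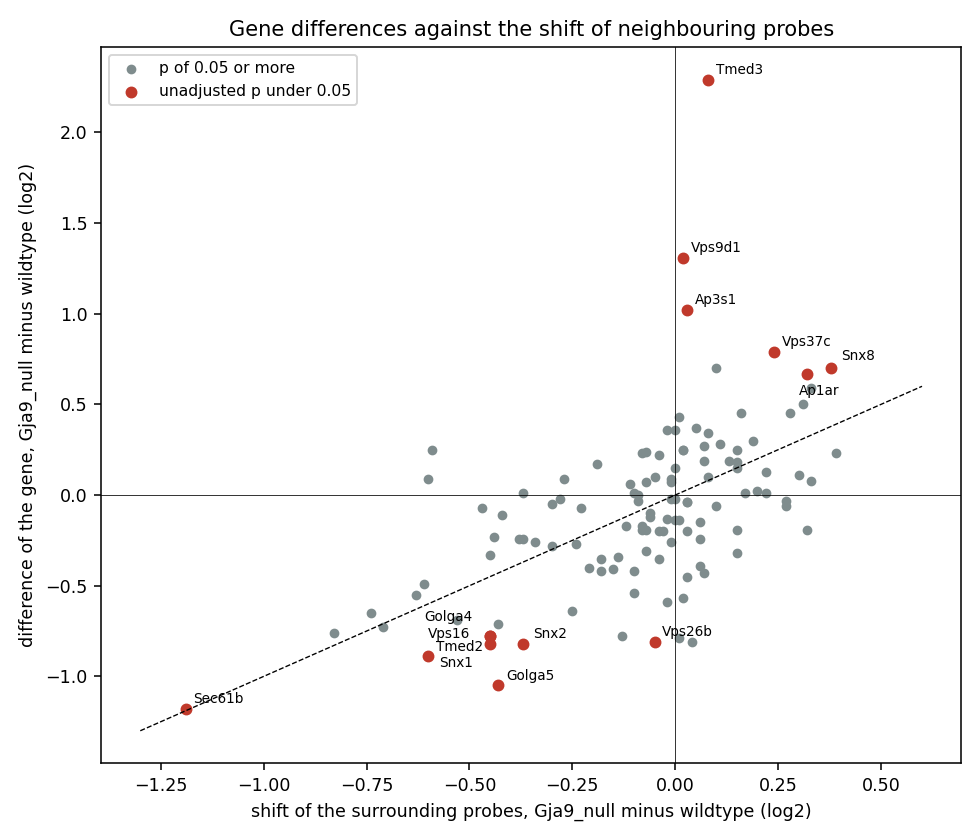
Each point is 1 of the 121 genes, with the shift of its neighbouring probes on the horizontal axis and its own difference on the vertical axis, both Gja9_null minus wildtype in log2; the dashed line marks equality and red marks an unadjusted p under 0.05. Sec61b at -1.19 and -1.18 lies on the line, and Tmed3 at 0.08 and 2.29 lies far above it.

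Entry into the ER was represented by 7 measured genes, of which Sec61b stood apart. Sec61b, the small beta subunit of the Sec61 channel, read -2.08, -2.27, -1.42 and -1.33 in the 4 wildtype samples, -3.04, -3.39, -2.59 and -2.80 in Gja9_null, and -1.68, -1.59, -1.56 and -1.54 in Gja9_het. All Gja9_null samples lay below all others. The difference from wildtype was -1.18 ± 0.41 (SE), with a limma p of 0.0116 and an adjusted p of 0.288, so it did not pass. With local centring it was 0.01. Its adjusted p over the alternatives that kept it ran from 2.89e-09, with samples put on arrays in the other pairing, to 0.987. Its 1 clone is among the dimmest 25% of probes, so it has no value when these are left out.

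The other channel subunits were nearer to 0. The pore-forming Sec61a1 was at 0.01 ± 0.37, its paralogue Sec61a2 at -0.33 ± 0.39 (0.12 with local centring) and the gamma subunit Sec61g at 0.02 ± 0.27. Sec62, which helps proteins enter after their synthesis, was at -0.32 ± 0.30 with all Gja9_null samples below wildtype. All Gja9_het samples of Sec62 also lay below wildtype, with a larger difference of -0.63 ± 0.30. The signal peptidase subunits Sec11a and Sec11c, which cut off the signal sequence, were at -0.24 ± 0.44 and -0.59 ± 0.36. The 7 genes had a median of -0.321, or -0.173 with local centring.

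The COPII coat, which forms the vesicles that leave the ER, had no gene past the test and values near 0. Its 10 measured genes split evenly, 5 at higher and 5 at lower values in Gja9_null, with a median of -0.015 and a range from -0.55 to 0.27. The lowest was the outer coat protein Sec13 at -0.55 ± 0.34, where all 4 Gja9_null samples lay below wildtype. With local centring Sec13 turned to 0.09, its surrounding shift being -0.63, and the median of the coat genes to 0.143. The GTPases that start coat assembly, Sar1a and Sar1b, were at 0.10 ± 0.27 and -0.26 ± 0.29, and the outer cage protein Sec31a at -0.05 ± 0.34. The cargo-binding Sec24 paralogues were at 0.25 ± 0.44 for Sec24a, 0.27 ± 0.35 for Sec24b, -0.40 ± 0.30 for Sec24c and 0.01 ± 0.28 for Sec24d. No member of the coat reached an unadjusted p of 0.05 in any comparison.

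The COPI coat, which carries cargo back from the Golgi to the ER, was as even. Arcn1, also a coat subunit, falls outside the symbol rule and is counted below with the Arf partners. It was at -0.30 ± 0.30 in Gja9_null and -0.51 ± 0.30 in Gja9_het, both against wildtype. The 6 measured subunits with a Cop symbol had a median of -0.004 in Gja9_null against wildtype, -0.016 in Gja9_het against wildtype and -0.026 between the mutant genotypes. They ran from Copa at -0.45 ± 0.30 to Copz1 at 0.28 ± 0.39, with Cope at -0.04 ± 0.29 and Copg1, measured by 4 clones, at 0.25 ± 0.29. The median size without sign was 0.143, against 0.310 over all features, whose averaging over clones differs.

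Tmed3 gave the largest difference of all 121 genes. It encodes a p24 protein, one of the small membrane proteins that bind coats and load cargo into ER and Golgi vesicles. Its values were 2.22, 1.81, 0.65 and 0.88 in wildtype, 4.00, 4.25, 3.40 and 3.07 in Gja9_null, and 2.36, 2.25, 1.60 and 1.62 in Gja9_het. All 4 Gja9_null samples lay above all other samples, and the first wildtype array lay above the second. The difference was 2.29 ± 0.58 (SE) from wildtype, with a limma p of 0.00127 and an adjusted p of 0.135, and 1.73 ± 0.58 from Gja9_het, with an adjusted p of 0.192.

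Tmed3 was the only member to pass under local centring, at 2.21 ± 0.40 with an adjusted p of 0.026 (limma, Benjamini-Hochberg), where 0.568% of all features passed. When the colours of each array were also averaged, it was 2.21 with an adjusted p of 0.215, and 0 members and 0 features passed. Over 26 alternatives its difference stayed between 1.85 and 2.41 and its adjusted p ran from 1.40e-09 to 0.357. It passed in 4 of these 26, and the other 3 treat the 2 colours of an array as independent samples or pair the samples otherwise. Without the first Gja9_null array it was 1.85 with an adjusted p of 0.332. The gene rests on 1 clone, so no second clone could check it.

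The other p24 genes were near 0 or below it. Tmed2, the p24 beta protein, read -0.63, -0.40, -0.79 and -0.61 in wildtype, -2.13, -2.24, -0.85 and -0.76 in Gja9_null, and -1.04, -0.78, -1.18 and -1.10 in Gja9_het. The first Gja9_null array alone was low, and the second overlapped wildtype. The difference was -0.89 ± 0.41 with an adjusted p of 0.425 in limma, -0.20 without the first Gja9_null array and -0.29 with local centring. Tmed4, Tmed7, Tmed9 and Tmed10 lay between -0.23 and 0.07.

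The cargo lectins, which carry glycoproteins out of the ER, did not pass either. Lman1 was at 0.25 ± 0.53, Lman2 at -0.31 ± 0.30 and Lman2l at -0.35 ± 0.29. With local centring these were 0.84, -0.24 and -0.31. Against Gja9_het Lman1 was at 0.64, or 1.37 with local centring (adjusted p 0.0672 in limma). Over the 9 p24 and lectin genes the median was -0.195, with 3 at higher and 6 at lower values.

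**Figure D3:**
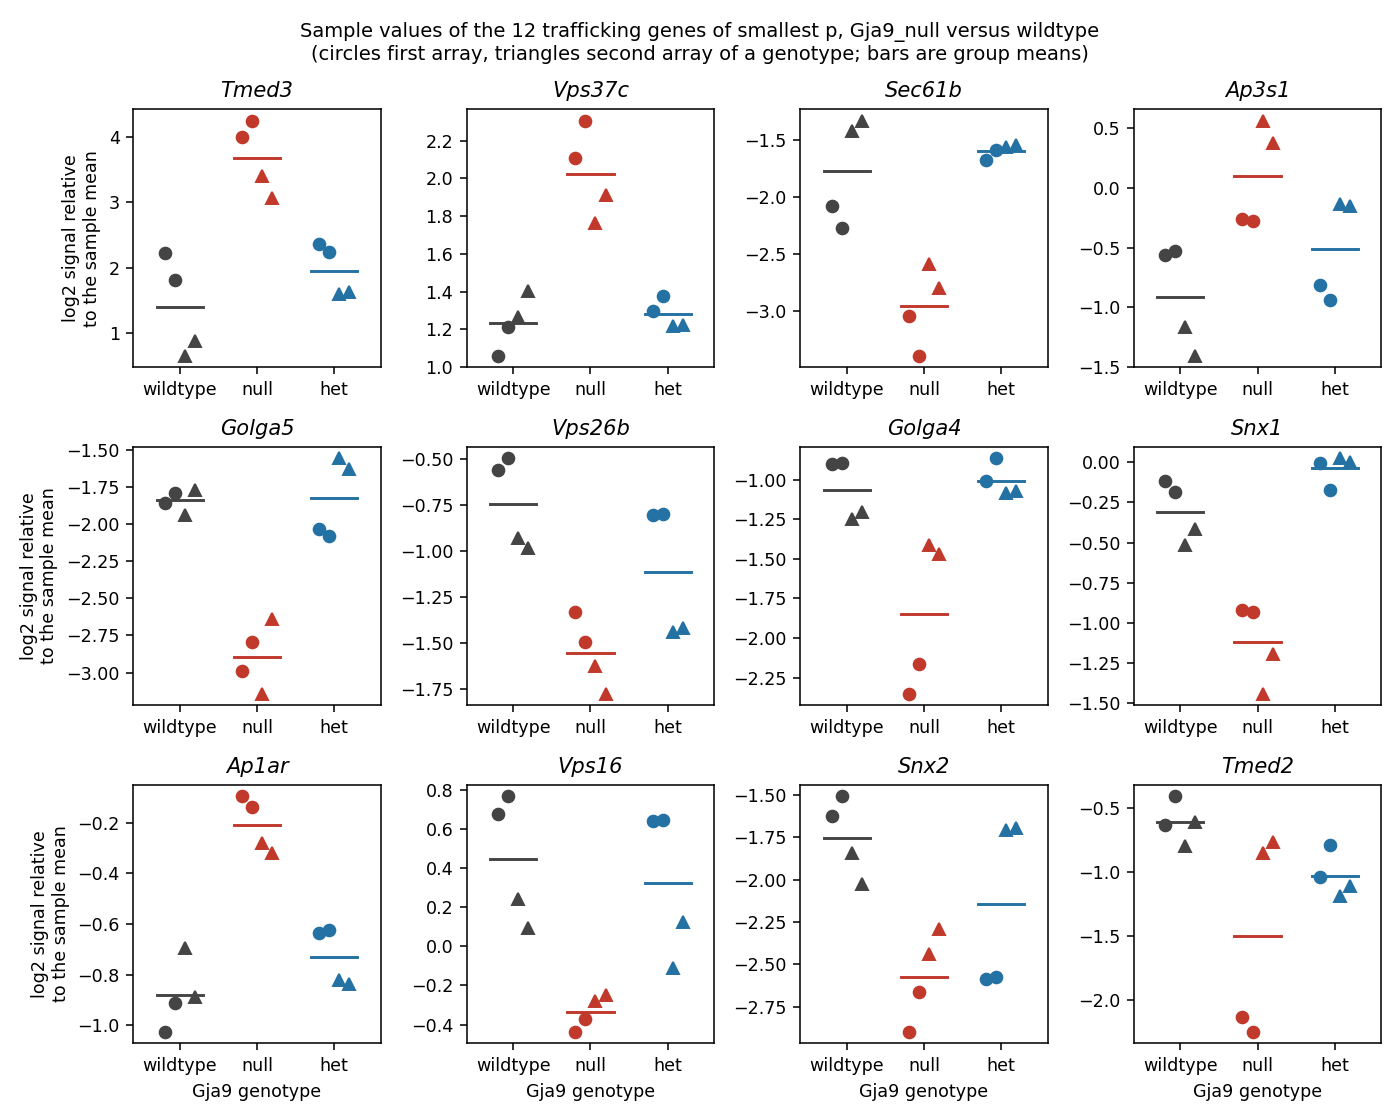
Each panel plots the log2 signal of 1 gene in the 12 samples by Gja9 genotype, for the 12 genes of smallest p in Gja9_null against wildtype, with circles and triangles for the 2 arrays of a genotype and bars for group means. Tmed3 runs from 3.07 to 4.25 in Gja9_null and no higher than 2.36 elsewhere, and in Tmed2 only the first Gja9_null array is low.

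Golgins are long coiled-coil proteins that reach out from Golgi membranes to catch vesicles, and the set here is the measured genes with a Golg symbol. Golga7 is counted by that symbol and is not a long coiled-coil protein. This set had the lowest median of the roles. All 7 genes of the set were at lower values in Gja9_null than in wildtype, with a median of -0.428. Quantile normalization, however, put 4 of the 7 at higher values with a median of 0.02. Local centring put 2 at higher values with a median of -0.338. In Gja9_het against wildtype the same 7 were at higher values, with a median of 0.158. Of all 9514 features, 5606 were at lower values in Gja9_null and 5178 at higher values in Gja9_het, each against wildtype. None passed.

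Golga5, also called golgin-84, was the lowest. It read -1.86, -1.79, -1.94 and -1.77 in wildtype, -2.99, -2.80, -3.14 and -2.64 in Gja9_null, and -2.04, -2.08, -1.56 and -1.63 in Gja9_het. Both Gja9_null arrays lay below every other sample, and the 2 wildtype arrays were nearly equal. The difference was -1.05 ± 0.40 (SE; adjusted p 0.336 in limma), -0.62 with local centring and -0.67 with quantile normalization.

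Golga4, the trans-Golgi golgin-245, read -0.90, -0.90, -1.25 and -1.21 in wildtype, -2.35, -2.16, -1.41 and -1.47 in Gja9_null, and -1.01, -0.87, -1.08 and -1.07 in Gja9_het. The first Gja9_null array was lower than the second, and both lay below the other genotypes. The difference of -0.78 ± 0.32 (adjusted p 0.364) became -0.38 without the first Gja9_null array and -0.34 with local centring. Its 3 clones differed, at -1.67, -0.85 and 0.17. Giantin (Golgb1), which spans the distance between Golgi cisternae and vesicles, was at -0.81 ± 0.54, and Golga1, Golga2 (GM130), Golga3 and Golga7 ran from -0.43 to -0.07.

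The tethers TRAPP and exocyst, which hold vesicles at the Golgi and at the plasma membrane, showed no lean. Of their 18 measured genes 9 were at higher and 9 at lower values in Gja9_null against wildtype, with a median of 0.031 and none at an unadjusted p under 0.05. Exoc6 was the lowest at -0.73 ± 0.36, with all 4 Gja9_null samples below wildtype, and Exoc5 the highest at 0.45 ± 0.35, with all 4 above. With local centring Exoc6 was at -0.02, its surrounding shift being -0.71, and Exoc5 at 0.18. Trappc9, a subunit of the TRAPPII complex, was at 0.23 ± 0.34, and Trappc12 at -0.69 ± 0.47, or -0.15 with local centring.

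The AP adaptor complexes select cargo for clathrin-coated and related vesicles, and 2 of 15 measured genes reached an unadjusted p under 0.05. Ap3s1, the small subunit of the AP-3 complex that supplies lysosomes and some synaptic vesicles, read -0.56, -0.53, -1.17 and -1.41 in wildtype, -0.26, -0.28, 0.57 and 0.38 in Gja9_null, and -0.81, -0.94, -0.14 and -0.15 in Gja9_het. All Gja9_null samples lay above wildtype, and the heterozygous arrays fell on either side of the first Gja9_null array. The difference was 1.02 ± 0.37 (adjusted p 0.324 in limma), 0.99 with local centring, and 1.25 and 0.79 in its 2 clones. Ap1ar, an adaptor-binding regulator also called gadkin, was at 0.67 ± 0.29 with 0.81 and 0.54 in its 2 clones, and at 0.35 with local centring.

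The other AP-3 genes gave Ap3s2 0.45 ± 0.31, Ap3b2 (the neuronal beta subunit) -0.20 ± 0.32 and Ap3m1, with 5 clones, -0.24 ± 0.33. The AP-2 genes, which act in endocytosis at the plasma membrane, were at 0.01 ± 0.31 for Ap2a2, -0.13 ± 0.64 for Ap2m1 and -0.54 ± 0.75 for Ap2s1. The wide errors of Ap2m1 and Ap2s1 go with wildtype arrays that differ from each other, as the heat map shows. In Ap2s1 the 2 samples of the first wildtype array also differ, at -0.42 and -1.43. The 15 genes had a median of -0.134, or 0.029 with local centring.

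Retromer returns receptors from endosomes to the Golgi and plasma membrane, and sorting nexins bend and coat the endosomal membrane for it. Of 24 measured genes, 10 were at higher and 14 at lower values in Gja9_null against wildtype, with a median of -0.034. The retromer core genes Vps35, Vps29 and Vps26a were at 0.11 ± 0.31, 0.00 ± 0.38 and -0.02 ± 0.29. Vps26b, the paralogue that can take the place of Vps26a, read -0.56, -0.50, -0.93 and -0.98 in wildtype, -1.33, -1.49, -1.62 and -1.77 in Gja9_null, and -0.81, -0.80, -1.44 and -1.42 in Gja9_het. All Gja9_null samples lay below wildtype, and the second heterozygous array overlapped Gja9_null. Its difference of -0.81 ± 0.31 (adjusted p 0.336 in limma) was -0.76 with local centring.

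Snx1 and Snx2, the paired membrane-bending partners of retromer, were both at -0.82 against wildtype, with SEs of 0.34 and 0.38 and adjusted p of 0.370 and 0.425 in limma. Snx1 read -0.12, -0.18, -0.51 and -0.41 in wildtype and -0.92, -0.93, -1.44 and -1.20 in Gja9_null, while Gja9_het lay between -0.17 and 0.03. Snx2 read -1.63, -1.51, -1.84 and -2.03 in wildtype and -2.90, -2.66, -2.44 and -2.29 in Gja9_null, and its heterozygous arrays were far apart, at -2.59 and -2.58 on the first and -1.71 and -1.70 on the second. Neither gene's Gja9_null samples overlapped wildtype. With local centring the differences were -0.36 for Snx1 and -0.45 for Snx2. Their partners Snx5 and Snx6 were at 0.15 ± 0.33 and -0.76 ± 0.49, or 0.00 and 0.07 with local centring.

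Snx8, an endosomal sorting nexin, was higher in value in Gja9_null, at -0.85, -0.93, -1.47 and -1.46 against -2.22, -2.30, -1.40 and -1.59 in wildtype and -2.08, -2.10, -2.42 and -2.53 in Gja9_het. It overlapped wildtype and not Gja9_het. Its difference was 0.70 ± 0.32 from wildtype and 1.11 ± 0.32 from Gja9_het (adjusted p 0.144 in limma), the latter 0.64 with local centring.

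HOPS and CORVET tether endosomes and lysosomes, and GARP tethers endosome-derived vesicles at the Golgi. The 13 measured genes of this set include Vps45, a regulator of SNARE fusion proteins, and Vps9d1, grouped here for its domain for activating Rab GTPases. Vps16, a core subunit of both HOPS and CORVET, read 0.68, 0.77, 0.24 and 0.09 in wildtype, -0.44, -0.37, -0.28 and -0.25 in Gja9_null, and 0.64, 0.64, -0.11 and 0.12 in Gja9_het. All Gja9_null samples lay below all others. The difference of -0.78 ± 0.34 (adjusted p 0.400 in limma) was -0.33 with local centring.

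The other subunits lay on both sides of 0. Vps11 was at 0.19 ± 0.39, Vps18 at -0.39 ± 0.68, Vps33a at 0.25 ± 0.41, Vps39 at -0.19 ± 0.41 and Vps41 at -0.20 ± 0.33. Of the GARP subunits, Vps53 was at -0.64 ± 0.44 with all Gja9_null samples below wildtype, Vps54 at -0.34 ± 0.35, Vps51 at -0.19 ± 0.34 and Vps52 at 0.19 ± 0.31. Vps9d1, at 1.31 ± 0.61, had wildtype values of -2.76 and -3.01 on one array and -0.41 and -0.25 on the other, and only the first array lay below Gja9_null, at -0.13, -0.08, -0.32 and -0.66.

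The ESCRT machinery pinches vesicles into endosomes, and 7 of the 10 genes in this set belong to it. Vps37c, an ESCRT-I subunit, read 1.06, 1.21, 1.27 and 1.40 in wildtype, 2.11, 2.31, 1.76 and 1.91 in Gja9_null, and 1.30, 1.38, 1.22 and 1.22 in Gja9_het. All Gja9_null samples lay above all others, by 0.79 ± 0.27 over wildtype (adjusted p 0.283 in limma) and 0.55 with local centring. Vps28, also of ESCRT-I, was at 0.50 ± 0.28, or 0.19 with local centring, its partner Vps37a at -0.03 ± 0.30, and the disassembly ATPases Vps4a and Vps4b at 0.10 ± 0.28 and -0.14 ± 0.34. The lipid transfer proteins Vps13b and Vps13d were at -0.78 ± 0.66 and -0.20 ± 0.33. Sec14l1 and Sec14l2, which resemble a lipid transfer protein of yeast, were at -0.71 ± 0.34 (-0.28 with local centring) and 0.17 ± 0.46, and Vps72 was at 0.07 ± 0.32.

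**Figure D4:**
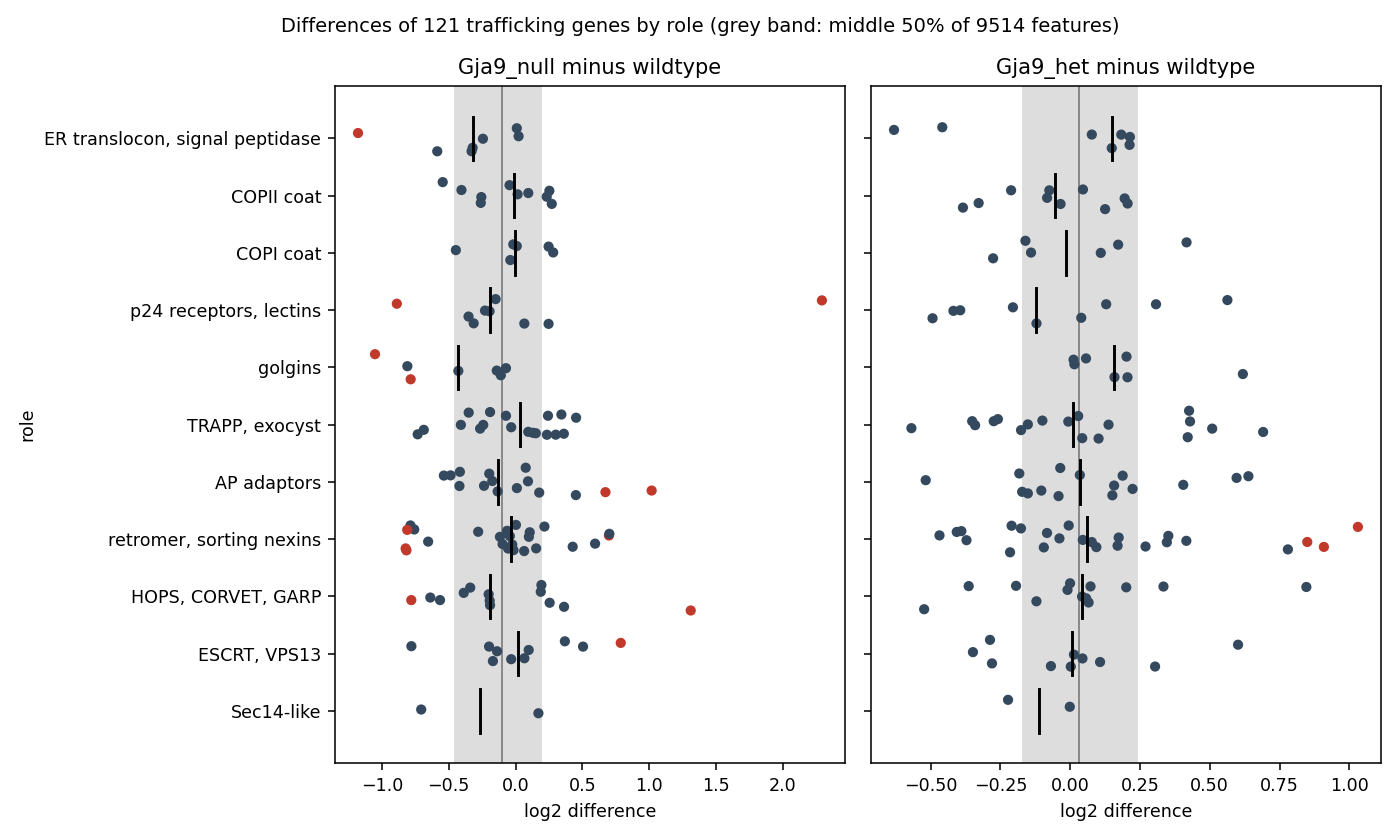
Points give the log2 difference of each gene by role, Gja9_null minus wildtype on the left and Gja9_het minus wildtype on the right; black bars are role medians, red marks an unadjusted p under 0.05, and the grey band and line are the middle 50% and median of 9514 features. The 2 comparisons share the wildtype samples. Golgins have the lowest role median on the left at -0.428, and Tmed3 at 2.29 is the farthest point.

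Between heterozygous and wildtype brains the members' median difference without sign was 0.194, and 0.201 over all features. In Gja9_het against wildtype 0 of 121 members passed and 0% of all features did (limma, adjusted p 0.05), and averaging the colours of each array also gave 0. With the replicate number as a block, which leaves out the array, 4 members passed; same-numbered samples of these 2 genotypes deviated together at correlations of 0.113 to 0.228. At an unadjusted p under 0.05 there were 3 members at higher values (background 1.67%) and 0 at lower ones (background 0.515%), 2.48% of the members and 2.19% of all features. The members' median was 0.034, against 0.033 for all features, and 9 members lay wholly above wildtype (background 8.67%) and 8 wholly below (background 6.09%).

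The 3 genes all belong to the retromer and sorting nexin set. Snx4, which recycles cargo from early endosomes, read -0.64, -0.76, -0.46 and -0.49 in wildtype, -0.30, -0.38, -0.39 and -0.41 in Gja9_null, and 0.28, 0.16, 0.39 and 0.22 in Gja9_het. The heterozygous samples lay above all others, by 0.85 ± 0.25 over wildtype with a limma p of 0.00471 and an adjusted p of 1, and by 0.71 with local centring.

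Snx9, which joins membrane bending to endocytosis, was at -1.14, -0.80, -1.90 and -1.65 in Gja9_het and -2.53, -2.00, -2.81 and -2.27 in wildtype, a difference of 1.03 ± 0.40. Vps26c, a subunit of the retriever recycling complex, was at -0.45, -0.60, -1.10 and -1.28 in Gja9_het and -1.61, -2.00, -1.47 and -1.99 in wildtype, a difference of 0.91 ± 0.41. In both, the second heterozygous array lay nearer to wildtype than the first. With local centring they were at 0.96 and 0.89, and their adjusted p was 1. Vps35l, another retriever subunit, was at -0.21 ± 0.27.

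Between the mutant genotypes 0 of 121 members passed, where 0.273% of all features did, and averaging the colours of each array again gave 0. At an unadjusted p under 0.05, 4 members were at higher values in Gja9_null than in Gja9_het (background 3.64%) and 13 at lower ones (background 11.3%), 14% of the members and 15% of all features. The members' median was -0.140 and that of all features -0.174, and 13 members lay wholly above (background 10.2%) and 26 wholly below (background 22.5%). This comparison shares its samples with both others, and it repeats Sec61b at -1.36 ± 0.41, Snx1 at -1.09 ± 0.34, Golga5 at -1.07 ± 0.40 and Golga4 at -0.84 ± 0.32 on the lower side and Vps37c at 0.74 ± 0.27 on the higher. With local centring these were -0.06 for Sec61b, -0.53 for Snx1, -0.63 for Golga5, -0.36 for Golga4 and 0.37 for Vps37c.

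Other members reached an unadjusted p under 0.05 here and not against wildtype, each with its 2 mutant means on either side of the wildtype mean. The exocyst subunits Exoc2 and Exoc7 were at -0.62 ± 0.28 and -0.66 ± 0.30, and another subunit, Exoc5, at 0.79 ± 0.35. Exoc5 read -1.53, -1.62, -0.59 and -0.54 in Gja9_het, so the first heterozygous array was the lower, and its difference was 0.35 with local centring. Snx3, which carries retromer to early endosomes, was at -0.84 ± 0.38, Snx13 at -0.83 ± 0.35, Sec11c at -0.80 ± 0.36 and Golga1 at -0.63 ± 0.30. With its mean over 2 clones, Snx13 was -0.22 without the first Gja9_null array and -0.22 with local centring.

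Trappc8, a TRAPP subunit tied to autophagy, was at -0.78 ± 0.34, but its 2 clones stood at -2.24 and 0.69. The first read -4.88 and -4.59 on the first Gja9_null array, -2.96 and -2.82 on the second, and between -1.69 and -1.41 in Gja9_het. The direction of the gene's difference depends on the clone. With local centring 0 members passed in this comparison, where 1.31% of all features did, and 0 passed in Gja9_het against wildtype, where 0.0105% did. Under local centring the members at an unadjusted p under 0.05 were 27 (22.3%) between the mutants, against 20.4% of all features, 8 (6.61%) in Gja9_het against wildtype, against 7.16%, and 15 (12.4%) in Gja9_null against wildtype, against 15%.

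Clones of 1 gene agreed in sign about as often as in other genes. Of the 63 members with at least 2 clones, all clones had the same sign in Gja9_null against wildtype in 25 (39.7%), and over all 2586 such genes in 43.2%. The range between clones of a member had a median of 0.69, against 0.61 over all 2586 such genes. First and second clones correlated at r = 0.03 across the 63 members and 0.05 across all genes, given as a description. Each clone can lie in a different region of the array and can read a different part of the transcript or a near-identical gene, and these were not told apart. Among the 14 members with an unadjusted p under 0.05, Ap3s1 and Ap1ar were the ones with every one of at least 2 clones in the same direction, and Golga4 had 3 clones that were split. The others of the 14, Tmed3, Vps37c, Sec61b, Golga5, Vps26b, Snx1, Vps16, Snx2, Tmed2, Snx8 and Vps9d1, rest on 1 clone each, as do 58 of all 121 members. Snx4, Snx9 and Vps26c, which reached an unadjusted p under 0.05 in Gja9_het against wildtype, also rest on 1 clone each.

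**Figure D5:**
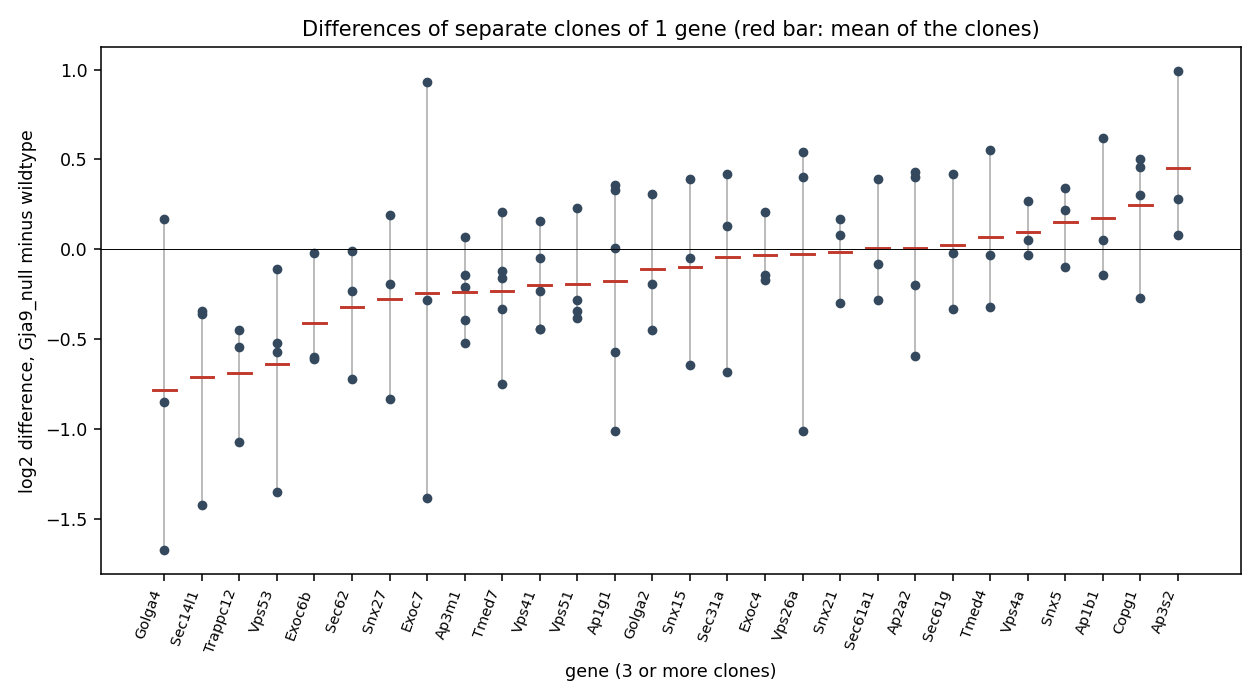
For the 28 genes with 3 or more clones, each dot is the log2 difference of 1 clone, Gja9_null minus wildtype, joined by a grey line within the gene, and red bars are the mean of the clones. Most lines cross 0, and the clones of Golga4 run from -1.67 to 0.17.

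Arrays differed from each other more than colours did. Between the 2 arrays of a genotype the median absolute difference of a member was 0.32 (wildtype), 0.42 (Gja9_null) and 0.30 (Gja9_het), and between the 2 colours 0.10, 0.12 and 0.09. The first Gja9_null array was the farthest of the 6 from the gene mean for 42 of 121 members, and for 3505 of 9514 features. With local centring it was the farthest for 18 members, and the first Gja9_het array was the farthest most often, for 31 members and 1934 features. The median difference between arrays was then 0.20 in wildtype, 0.14 in Gja9_null and 0.28 in Gja9_het.

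The genes that work beside these members were read from lists of known function, and no gene of any list passed in any comparison. Of 14 measured Arf GTPases and partners, which recruit COPI and adaptors, 10 were at lower values in Gja9_null against wildtype and 4 at higher ones, and the Arf activator Gbf1 was at -1.03 ± 0.34, or 0.04 with local centring. In the same list local centring turned Arfgap1 from -0.18 ± 0.33 to 0.90 (adjusted p 0.0687 in limma). Of 23 Rab GTPases and partners, the address labels of vesicles, 15 were lower and 8 higher in value, with the Rab-binding Rabac1 at -1.33 ± 0.43, or -0.52 with local centring, and Rab10 at 0.80 ± 0.32, or 0.52. Of 21 SNAREs and fusion factors 14 were lower and 7 higher, with the plasma membrane SNARE Stx3 at -1.05 ± 0.29 (adjusted p 0.168 in limma), or -0.76 with local centring. The medians of the Arf, Rab and SNARE lists were -0.147, -0.124 and -0.264, and with local centring 0.046, 0.025 and -0.063. Over all 9514 features 5606 were lower and 3908 higher in value, with a median of -0.100, or -0.014 with local centring.

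Of 16 clathrin and endocytosis genes 9 were higher and 7 lower in value, and the endocytic adaptor Numb was at 0.35 ± 0.33. In Gja9_het against wildtype Numb was at 1.25 ± 0.33 (adjusted p 1 in limma). Of 18 ESCRT genes outside the Vps names 9 were higher and 9 lower. Of 20 lysosomal and sorting receptor genes 8 were higher and 12 lower, with the protease Ctsa (cathepsin A) at -0.95 ± 0.34, the cholesterol carrier Npc2 at 0.90 ± 0.33 and the glycolipid-cleaving Gla at -0.72 ± 0.30. With local centring they were at -0.16, 0.47 and -0.62. Of 25 ER translocation and chaperone genes 10 were higher and 15 lower, with the ER chaperones Hsp90b1 (GRP94) at -0.87 ± 0.36, or -0.10 with local centring, and Hspa5 (BiP) at 0.55 ± 0.34.

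Cell type markers were read beside them, and none passed on the deposited values. With local centring the astrocyte glutamate transporter Slc1a3 passed between the mutants, at 0.92 with an adjusted p of 0.0495 (limma), against 1.39 with an adjusted p of 0.0724 as deposited. In Gja9_null against wildtype the 6 measured neuronal genes had a median of -0.387, the 5 astrocyte genes 0.364, the 4 oligodendrocyte genes -0.666 with all 4 at lower values, the 6 microglia and blood genes -0.043 and the 6 endothelium and choroid plexus genes -0.058. With local centring the medians were -0.282 for neurons, 0.393 for astrocytes, -0.207 for oligodendrocytes, 0.033 for microglia and blood and -0.152 for endothelium and choroid plexus. Their part in the trafficking genes' values was not tested.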

How the data were processed

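The deposited values are log2 signals of 28704 probes relative to the mean of their sample, a scale settled from the values. No source used here states how the authors corrected background and dye, filtered probes or normalized. Of the probes, 13443 had values in all samples. Probes were named from the array's probe table (10356 with 1 gene, 560 with several, which were not named, 2527 with none) and updated by gene number (10263 matched). Clones of a gene were averaged, giving 9514 features.

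Labels do not give the array: the 2 Cy5 samples' difference correlated with that of the 2 Cy3 samples at 0.940, 0.933 and 0.919 in wildtype, Gja9_null and Gja9_het, so samples 1 and 2, and 3 and 4, were taken to share one. The label field was followed where the labelling protocol gives the other dye (wildtype 3, Gja9_null 1). limma 3.58.1 in R 4.3.3 (lmFit, eBayes, two-sided) fitted genotype and dye over all 12 samples with the array as a random block (duplicateCorrelation, 0.927), with Benjamini-Hochberg adjustment over all 9514 features. The prior gave 6.53 of 14.5 degrees of freedom. The code was tested on simulated data. Whether replicate numbers pair samples across genotypes was checked from same-numbered deviations: correlations were -0.094 to -0.054 for Gja9_null and wildtype, 0.022 to 0.067 for the mutants and 0.113 to 0.228 for Gja9_het and wildtype, and the labels name no shared litter or day.

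Alternatives were array means, no array block, the other pairing, a replicate block, no dye term, median, quantile and local centring, leaving out the dimmest 25% of probes, 1 clone per gene, an intensity trend, only 2 genotypes, and leaving out each sample or the first Gja9_null array. Local centring with array means was chosen after seeing the data. The members and gene lists were chosen with earlier results of these data known. Members with an unadjusted p under 0.05 (up to 12 per comparison) and, per list, up to 3 further genes by p were to be named; other members may be named. Data on other connexin knockouts are not analysed here.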

Additional observations from a re-analysis of the deposited data

Results flagged for a closer look

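Snx1 in Gja9_het replicate 2 stood at -0.17, apart from the other 3 heterozygous samples, which lay between 0 and 0.03. It shares its array with replicate 1, and the distance is small beside the difference of -1.09 between Gja9_null and Gja9_het. This was 1 of 57 groups of 4 samples checked. The rule is made for 4 independent samples, and 2 arrays of 2 colours are not, so no chance rate is given.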

How the results depend on the processing

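In Gja9_null against wildtype, the count of members passing was 0 in each alternative except no array block (16), the other array pairing (86), the replicate block (21) and local centring (1). Members at an unadjusted p under 0.05 numbered 14, and 8 with array means, quantile normalization, only the 2 genotypes compared or without the first Gja9_null array, 32 with no array block, 89 with the other pairing and 37 with the replicate block. The median of -0.072 became 0.005 with median centring, 0.024 with quantile normalization, 0.009 with 1 clone per gene and -0.001 with local centring, also with array means. In Gja9_het against wildtype, passing members were 1, 76 and 4 with no array block, the other pairing and the replicate block. Members at an unadjusted p under 0.05 were 16, 80 and 22 in the same order, 8 with local centring and 5 with local centring and array means, and the median was -0.03 with local centring, with or without array means. Between the mutants, the same 3 settings gave 24, 98 and 32 passing and 40, 98 and 49 at an unadjusted p under 0.05, which was 27 with local centring; the median became -0.028 with median centring, 0.019 with quantile normalization, -0.02 with local centring, with or without array means, and -0.079 with 1 clone per gene. Leaving out each sample in turn kept 0 passing in all 3 comparisons and gave 10 to 13, 2 to 5 and 11 to 17 members at an unadjusted p under 0.05 and medians of -0.098 to -0.051, 0.016 to 0.055 and -0.181 to -0.136. Sec61b turned to 0.01 in Gja9_null against wildtype with local centring, also with array means, and Trappc8 to 0.69 between the mutants without the dimmest 25% of probes and with 1 clone per gene, where 1 of its 2 clones is left. Without the dimmest 25% of probes 101 members were left, and Sec61b, Golga5, Snx2, Snx8, Snx9 and Snx13 were among those without a value. The causes of the other shifts were not tested.

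Same-numbered samples of Gja9_het and wildtype deviated together at correlations of 0.113 to 0.228. With 2 arrays per genotype these correlations cannot show that replicate numbers pair samples. The replicate block leaves out the array, so that the 2 colours of an array count as independent. The other pairing gave an array correlation of -0.908. With 2 arrays per genotype, and no signal over background in the deposited values, small differences were not detectable. Large ones could fail to pass as well, as Tmed3 did at 2.29 ± 0.58 in Gja9_null against wildtype (adjusted p 0.135 in limma). The lack of passing members therefore does not show that large differences are absent.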
